A study of Homo sapiens with 6 samples.

Results

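The clustered protocadherins are cell-surface adhesion molecules of the cadherin superfamily, encoded by 3 neighbouring gene arrays on human chromosome 5. Members were taken by symbol: every PCDHA, PCDHAC, PCDHB, PCDHGA, PCDHGB or PCDHGC gene with a number was counted. This gave 54 of the 59653 genes in the count table, of which 16 belonged to the alpha array, 16 to the beta array and 22 to the gamma array. Their mRNA was sequenced in PA1, an established human ovarian teratocarcinoma line that is labelled wild type. The control group (3 libraries) had received a negative-control small interfering RNA (siRNA), and the SOX2 siRNA group (3 libraries) had received siRNA against the transcription factor SOX2. The labels mention 2 siRNAs against SOX2 without stating if one library received both. Cells of both groups were transfected in adherent culture and moved after 24 h to plates coated with poly-HEMA, a non-adhesive polymer, where they grew for 72 h without attachment before RNA extraction.

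Clustered protocadherins bind like molecules on neighbouring cells, and in neurons the combination a cell displays serves as its surface identity, used in self-avoidance of neurites. Alpha and gamma genes each have an own first exon, with an own promoter, that encodes the extracellular domain and is spliced to constant exons shared by the whole array, while beta genes are single-exon genes without a shared intracellular end. Promoters are selected through the insulator protein CTCF and cohesin, and the C-type members at the ends of the alpha and gamma arrays are known in neurons for broader, more constitutive use than the others.

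Under GENCODE 29 (GRCh38) every member lay on the plus strand of chromosome 5. The alpha array ran from 140786136 to 141012347, the beta array from 141051135 to 141249365 and the gamma array from 141330571 to 141512981. PCDHA14 is annotated there as a transcribed pseudogene and was kept because the rule names it. Shared exons limit how well these genes can be told apart. Of the 31-base words in a member's transcripts, a median of 46.6% in the alpha array and 41.6% in the gamma array occurred in 6 or more members, against 9.91% in the beta array. How the deposited counts treat reads from such shared sequence is not given in the sources used here.

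Most clustered protocadherin promoters carry a conserved sequence element with the core CGCT. RefSeq promoters (GRCh38.p14, 300 bases, 250 of them upstream of the start) were matched by symbol for 47 of the 54 members, and 46 of the 47 held CGCT on either strand, a core so short that 71.9% of promoters of all genes held it. Windows of 29 bases on the plus strand around the core are shown for 6 of the called members, and for 3 members that were not called or not tested as comparison. CGCT is in capitals. Where a promoter held CGCT more than once, the copy whose surroundings best matched other members of its array was shown. A window therefore need not be the conserved element, and the core of PCDHB8 lay 3 bases downstream of the start.
PCDHB8 (chr5:141177780-141177808): ggacccgtggtggCGCTgcaggataagaa
PCDHB13 (chr5:141213868-141213896): ggacgcgtggtggCGCTgcaggataagaa
PCDHB14 (chr5:141223266-141223294): agacacatggtggCGCTacaggataagac
PCDHB2 (chr5:141094547-141094575): agacgcggggtggCGCTgcagccttagaa
PCDHGB4 (chr5:141387620-141387648): tgactctgggcgcCGCTgttggccaaagt
PCDHGB5 (chr5:141397866-141397894): tgactctgggcgcCGCTgttggccaaagt
PCDHGC3 (chr5:141475883-141475911): ggactctgtgtgcCGCTgtcggccaatga
PCDHGC4 (chr5:141484955-141484983): tgagcccgggagcCGCTgtctgccaatcg
PCDHA4 (chr5:140806982-140807010): agccacatgatgtCGCTctttaccacaaa

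The windows of PCDHB8 and PCDHB13 differed by 1 base, C5G, with positions counted from 1 at the 5′ end of the window and the base of PCDHB8 written first. PCDHGB4 and PCDHGB5 had identical windows. PCDHGC3 differed from both by T1G, G9T, C11T, T20C, A27T and T29A, with the base of PCDHGB4 written first. PCDHGB7 had a CGCT whose surroundings were only 37.0% identical on average to the other gamma windows, and its window is not shown. The median gamma member was 68.2% identical, and PCDHGC4, shown above, was 58.1% identical. PCDHGC5 had no entry in the promoter table. Extended forms of the core, chosen after the windows were read, differed in use among the arrays; all letters were searched on both strands. TGTCGCT was present in 10 of 13 alpha promoters, 1 of 14 beta promoters and 3 of 20 gamma promoters, against 2.15% of all genes. GGCGCT was present in 13 of 14 beta promoters, 1 of 13 alpha promoters and 9 of 20 gamma promoters, against 24.8% of all genes. Among tested members with a promoter entry, GGCGCT was in 6 of 7 called and 15 of 25 not called. TGTCGCT was in 0 of 7 called and 3 of 25 not called. Another form, GNCGCTG (N for any base), was in 5 of 7 called and 23 of 25 not called. Whether any form goes with the change was not tested. The TATA-like letters TATAA were in 36.2% of member promoters against 24.2% of all genes. CCCTC, part of the CTCF motif, was in 29.8% of member promoters against 73.3% of all genes. By array, CCCTC was in 3 of 13 alpha, 0 of 14 beta and 11 of 20 gamma promoters. A stretch this short does not show whether CTCF binds.

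Sequencing depth was 25152313 to 32753184 counts per library. SOX2, the targeted gene, had levels in CPM (counts relative to library size after TMM scaling) of 245, 265 and 256 in control replicates 1 to 3 and of 51.8, 54.9 and 50.6 in SOX2 siRNA replicates 1 to 3, a log2 fold change of -2.28 ± 0.0437 (SE). All clustered protocadherins together took 0.0243 to 0.0254% of counts in control and 0.0349 to 0.0366% in SOX2 siRNA libraries. These are 6107 to 8236 counts in control and 10736 to 11326 in SOX2 siRNA. The floor used for detection, 3 counts in a library, equals 0.0908 to 0.120 CPM. The line expressed 9 of 10 listed teratocarcinoma markers above the filter on low counts, and 7 of 14 listed neuronal markers, with MAP2 at 131 CPM, GAP43 at 44.6 CPM, INA at 37.0 CPM, TUBB3 at 28.9 CPM and SYT1 at 16.8 CPM in control. The neuronal markers NEFM, STMN2, RBFOX3, ELAVL3 and ELAVL4 had at most 3 counts in every library. In these bulk samples, fewer cells that express a gene and less RNA per cell cannot be told apart.

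The clustered protocadherins that changed after SOX2 siRNA were PCDHB8, PCDHB13 and PCDHB14 of the beta array and PCDHGB4, PCDHGB5, PCDHGB7, PCDHGC3 and PCDHGC5 of the gamma array. Of the 54 members, 35 passed the filter on low counts, and 8 of the 35 (22.9%) were called, all higher and 0 lower, by edgeR's quasi-likelihood test at an adjusted p of 0.05. Among all 17592 tested genes 28.2% were called, 14.8% higher and 13.4% lower. The share of members called in either direction was thus below that of all tested genes, and the share called higher was above it. No test compared these shares. At an unadjusted p of 0.05, 2 members were lower, and neither DESeq2 nor limma-voom called one lower. The median log2 fold change of the 35 tested members was 0.07, against -0.00084 for all tested genes. Groups of libraries did not overlap for 11 of the 35, against 41.8% of all tested genes. The 3 of those 11 that were not called were PCDHB11, PCDHGA6 and PCDHGA10.

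**Figure D1:**
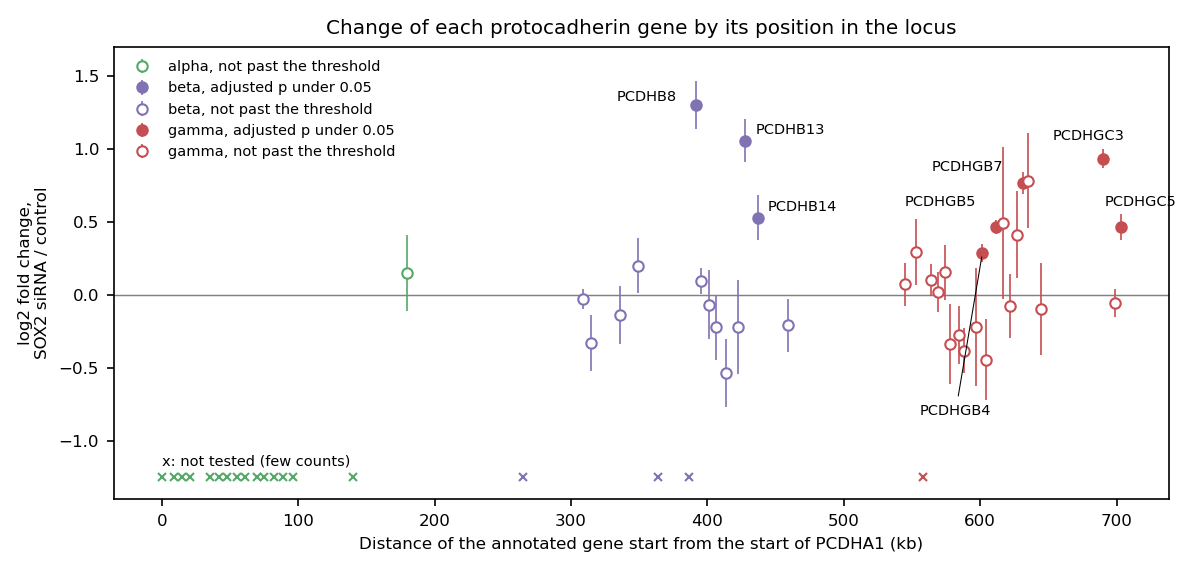
Log2 fold change (SOX2 siRNA over control, vertical axis) of each tested member against the distance of its gene start from the start of PCDHA1 in kb, with bars of 1 standard error; filled points passed an adjusted p of 0.05 and crosses mark the 19 members not tested. The filled points sit in the beta and gamma arrays, and the alpha array has 1 tested point.

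Alpha genes were near absent in PA1. Of 16 members, 3 (PCDHA9, PCDHA13 and PCDHA14) had 0 counts in all 6 libraries, 11 (these 3 included) had at most 3 counts in every library, and 1, PCDHAC2, passed the filter. PCDHAC2, a C-type gene, had 32, 30 and 22 counts in control and 30, 44 and 26 in SOX2 siRNA libraries. The groups overlapped, at 0.975 ± 0.218 CPM (SD, n = 3) in control and 1.07 ± 0.255 CPM in SOX2 siRNA, and edgeR gave an adjusted p of 0.726 with a 95% interval of -0.40 to 0.70 for the log2 fold change. PCDHAC1, the other alpha C-type gene, had 3, 4 and 0 counts against 0, 2 and 0 and was not tested. PCDHA4 had 7, 18 and 9 counts against 11, 7 and 10, the highest of the untested alpha genes, with the extra counts in control replicate 2. PCDHA1, also not tested, had 5, 4 and 6 counts in control and 1, 0 and 2 in SOX2 siRNA libraries, without overlap in CPM. Summed over the array, the alpha genes gave 1.63, 2.67 and 1.49 CPM in control and 1.59, 1.73 and 1.57 CPM in SOX2 siRNA libraries, with overlapping groups.

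In the beta array, 13 of 16 members passed the filter, PCDHB2 was the most abundant and 3 rose. PCDHB1 had 1 count in total, and PCDHB6 and PCDHB7 had between 1 and 16 counts per library. PCDHB2 stood at 16.5, 17.0 and 18.8 CPM in control and at 17.0, 16.4 and 17.8 CPM in SOX2 siRNA libraries. The groups overlapped, with a log2 fold change of -0.03 (95% interval -0.18 to 0.11, edgeR's adjusted p 0.792). PCDHB8 was at 1.63, 1.40 and 1.90 CPM in control and at 3.90, 4.57 and 3.71 CPM in SOX2 siRNA libraries. Every SOX2 siRNA library stood above every control library, with a log2 fold change of 1.30 ± 0.164 (SE), or 2.46-fold (edgeR's adjusted p 1.04e-05). PCDHB13 was at 2.03, 2.63 and 2.14 CPM against 4.50, 4.51 and 5.08 CPM. Its groups did not overlap either, with a log2 fold change of 1.06 ± 0.147 (SE; edgeR's adjusted p 3.04e-05). PCDHB8 shares 33.1% of its 31-base words with PCDHB13, so reads could be split between them; the pair summed gave 3.66 to 4.04 CPM in control and 8.41 to 9.08 CPM in SOX2 siRNA libraries, 2.24-fold. PCDHB14 was at 1.94, 1.99 and 1.87 CPM against 2.81, 2.78 and 2.78 CPM, also without overlap. Its log2 fold change of 0.53 ± 0.156 (SE) had an adjusted p of 0.0170 by edgeR, but missed the threshold with DESeq2 (adjusted p 0.14), without control replicate 3 (0.0564, edgeR) and without SOX2 siRNA replicate 2 (0.0546, edgeR).

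The other 10 tested beta genes spread over log2 fold changes from -0.53 (PCDHB11) to 0.20 (PCDHB5), and none passed the threshold. PCDHB11 had 40, 27 and 33 counts in control and 26, 24 and 23 in SOX2 siRNA libraries, without overlap in CPM, and an adjusted p of 0.104 by edgeR. The median over the 13 tested beta genes was -0.07. Summed over the array, the beta genes gave 43.5, 43.1 and 47.1 CPM in control and 49.7, 47.6 and 49.7 CPM in SOX2 siRNA, 1.10-fold without overlap. Without PCDHB8, PCDHB13 and PCDHB14, left out after their values were seen, the sums were 38.7 ± 2.15 and 37.5 ± 1.47 CPM (SD, n = 3), and the groups overlapped.

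The gamma array held most of the counts, and its largest member, PCDHGC3, also rose the most among the called gamma genes. PCDHGC3, a C-type gene, stood at 77.7, 68.4 and 64.5 CPM in control and at 140, 128 and 135 CPM in SOX2 siRNA libraries. The groups were far apart, with a log2 fold change of 0.93 ± 0.0624 (SE), or 1.91-fold (edgeR's adjusted p 6.81e-07). PCDHGC5, the last gene of the array, was at 8.69, 8.21 and 9.74 CPM against 12.8, 11.2 and 12.9 CPM. It rose by 0.47 ± 0.0885 on the log2 scale (SE; edgeR's adjusted p 0.000642). PCDHGC4, which lies between them, was at 6.42, 7.70 and 7.33 CPM against 6.68, 6.89 and 6.99 CPM. Its groups overlapped (log2 fold change -0.06, 95% interval -0.26 to 0.15, edgeR's adjusted p 0.735). The intervals of PCDHGC3 (0.80 to 1.07) and PCDHGC5 (0.28 to 0.65) both lay above that of PCDHGC4. The difference between these genes was not tested. All 3 carry the same constant exons, and 60.9% of the words of PCDHGC3 were found in no other transcript.

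Of the 7 gamma B genes, 3 rose (42.9%, against 28.2% called and 14.8% called higher among all tested genes). PCDHGB5 was at 38.2, 37.3 and 41.4 CPM in control and at 52.7, 55.1 and 53.7 CPM in SOX2 siRNA libraries, an increase of 0.47 ± 0.0493 on the log2 scale (SE; edgeR's adjusted p 1.25e-06). PCDHGB7 was at 21.2, 25.4 and 27.2 CPM against 42.7, 40.8 and 41.8 CPM, an increase of 0.77 ± 0.0743 (SE; edgeR's adjusted p 4.27e-06). Neither gene had overlapping groups, and PCDHGB7 moved the most of the gamma B genes. PCDHGB4 was at 21.0, 19.6 and 22.6 CPM against 25.6, 26.3 and 25.4 CPM, a smaller increase of 0.29 ± 0.0611 on the log2 scale (SE; edgeR's adjusted p 0.00164), again without overlap. PCDHGB4 shares 32.5% of its words with its neighbour PCDHGA8, which was at 1.36 CPM in control. The pair summed to 21.4 to 23.6 CPM in control and 26.0 to 27.5 CPM in SOX2 siRNA libraries. PCDHGB1, PCDHGB2, PCDHGB3 and PCDHGB6 had log2 fold changes from -0.28 to 0.16, none past the threshold.

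None of the 11 tested gamma A genes was called by edgeR, by DESeq2 or by limma-voom. Among all tested genes, edgeR called 28.2%. At an unadjusted p of 0.05 edgeR gave 2 gamma A genes. These were PCDHGA6 (log2 fold change -0.38, adjusted p 0.0735 by edgeR) and PCDHGA11 (0.78, adjusted p 0.0869 by edgeR). PCDHGA6 was at 3.12, 4.23 and 3.52 CPM in control and at 2.95, 2.75 and 2.61 CPM in SOX2 siRNA libraries, without overlap. PCDHGA11 was at 0.515, 0.957 and 0.346 CPM against 0.893, 1.24 and 0.936 CPM, with control replicate 2 inside the range of the SOX2 siRNA group. PCDHGA6 passed the threshold when control replicate 1 was left out, and PCDHGA11 when control replicate 2 was left out. PCDHGA3 was the one gamma gene not tested. Gamma A levels were low, between 0.548 CPM (PCDHGA7) and 3.79 CPM (PCDHGA4) in control among the tested genes. The 5 called gamma genes were the 5 most abundant of the array in control, from 8.88 CPM (PCDHGC5) upward, with PCDHGC4 next at 7.15 CPM. Their standard errors were 0.0493 to 0.0885, against 0.139 to 0.522 for the tested gamma A genes. In the beta array, PCDHB8 was called at 1.64 CPM in control and PCDHB2 was not at 17.4 CPM. Subfamily and level were not separated by a test.

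**Figure D2:**
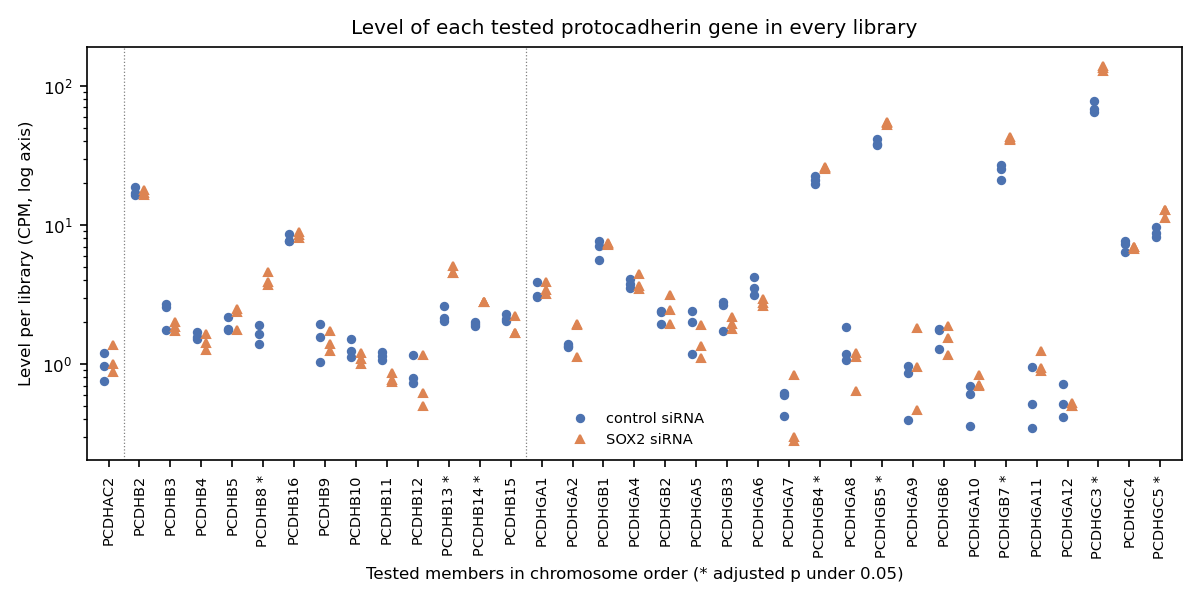
Level in CPM (log axis) of the 35 tested members in every library, in chromosome order, with circles for control and triangles for SOX2 siRNA; asterisks mark the 8 members past an adjusted p of 0.05. PCDHGC3, PCDHGB5, PCDHGB7 and PCDHGB4 are the most abundant called members, and the triangles of all 8 called members lie above their circles.

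Across the arrays, the gamma sum was 204, 198 and 206 CPM in control and 312, 301 and 308 CPM in SOX2 siRNA libraries, 1.51-fold higher without overlap. PCDHGC3 made up 61.7% of that difference in mean CPM, PCDHGB7 16.5% and PCDHGB5 14.3%. Without PCDHGC3 the gamma sum was 132 CPM with control siRNA and 172 CPM with SOX2 siRNA, 1.30-fold. Divided by subfamily, the C-type sum went from 86.2 to 154 CPM (1.78-fold) and the gamma B sum from 97.7 to 135 CPM (1.38-fold), both without overlap, whereas the gamma A sum was 18.6 CPM with control siRNA and 18.4 CPM with SOX2 siRNA, with overlap. The gamma array accounted for 81.3% ± 0.502 (SD, n = 3) of all member counts in control and 85.8% ± 0.0858 in SOX2 siRNA, the beta array for 17.9% ± 0.550 and 13.7% ± 0.109, and the alpha array for 0.779% ± 0.278 and 0.457% ± 0.0328. None of these 3 shares overlapped between groups. The shares add to 100%, so a higher gamma share lowers the others. The beta share fell although the beta sum was 1.10-fold higher, and the alpha sums overlapped. These sums are descriptions and carry no p. The share of tested members called was 23.1% in the beta array (3 of 13) and 23.8% in the gamma array (5 of 21). All of these calls were higher. Both shares were below the 28.2% of all tested genes called in either direction and above the 14.8% called higher.

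**Figure D3:**
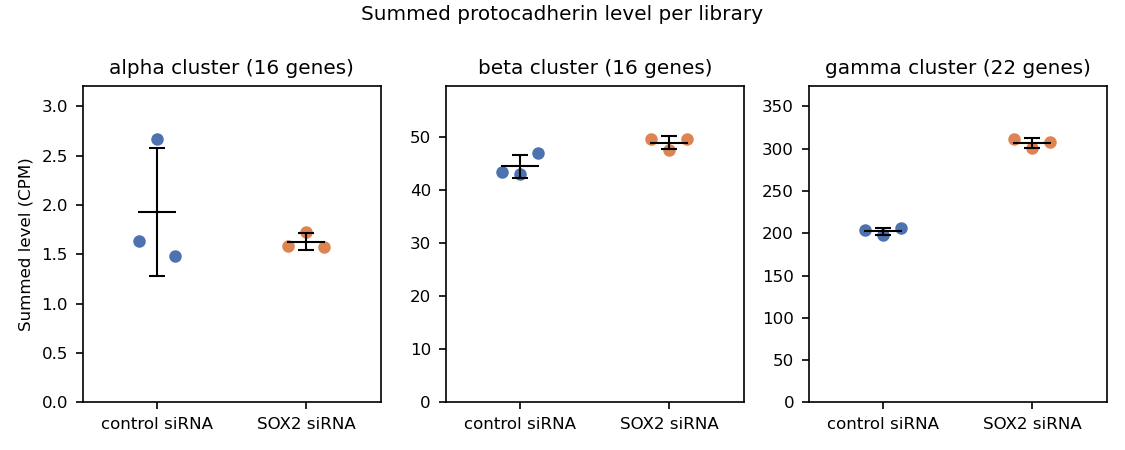
Summed level in CPM per library for each array, on separate linear axes that start at 0, with points for libraries and lines for the mean with 1 SD. The gamma groups are far apart (203 against 307 CPM), the beta groups are close without overlap (44.6 against 49.0 CPM), and the alpha groups overlap.

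Levels can be compared between genes only per length of transcript. On that scale, in CPM per kb of the longest annotated transcript in control, PCDHGC3 was highest at 14.9, followed by PCDHGB5 at 8.51, PCDHGB7 at 5.17, PCDHGB4 at 4.46 and PCDHB2 at 4.22. In SOX2 siRNA libraries PCDHGC3 was at 28.4, PCDHGB5 at 11.8, PCDHGB7 at 8.76, PCDHGB4 at 5.45 and PCDHB2 at 4.13, in the same order. PCDHB8 went from 0.600 to 1.48 and PCDHB13 from 0.448 to 0.928 on this scale, so these genes, with the largest fold changes, stayed below PCDHB2 in level. The longest transcript need not be the one these cells use. The order across arrays may also depend on how reads from shared sequence were counted, which is not known. Of the words of PCDHGB4, 26.6% were found in no other transcript, against 62.1% for PCDHB2.

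**Figure D4:**
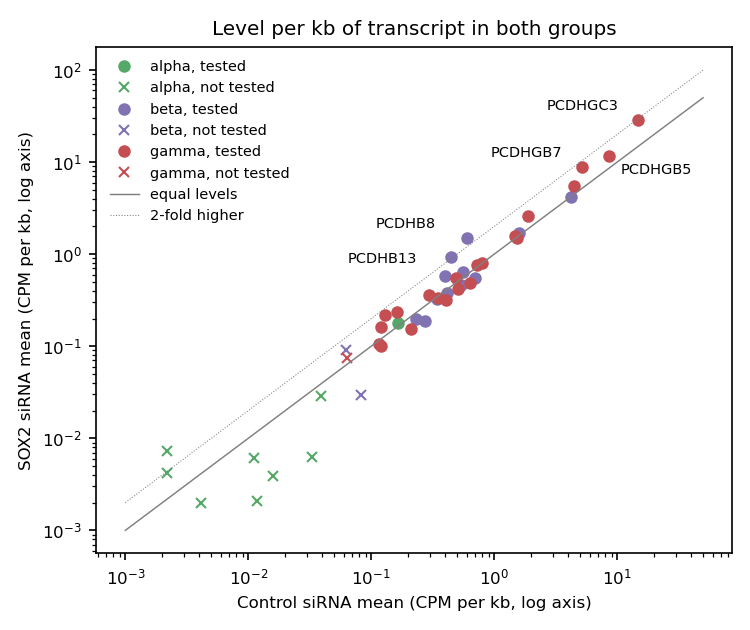
Mean level in CPM per kb of the longest annotated transcript in SOX2 siRNA against control libraries, both on log axes, for members above 0 in both groups; the solid line marks equal levels and the dotted line a 2-fold higher level. PCDHB8 and PCDHB13 lie above the dotted line, PCDHGC3 lies just under it, and most untested alpha genes lie lowest.

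Genes outside the arrays were listed by role. Among the genes that flank the locus, 6 of 18 tested (33.3%) were called, all higher, against 28.2% called and 14.8% called higher among all tested genes. They included PCDH1 (log2 fold change 0.73), ARAP3 (0.37) and FCHSD1 (0.31). TAF7, which lies between the beta and gamma arrays, was at 0.07 and was not called. Of 12 genes for CTCF, cohesin and its loaders, STAG2 rose by 0.20, SMC1A fell by 0.14 and STAG1 fell by 0.13 on the log2 scale, and CTCF (0.02) and RAD21 (0.03) were not called. STAG1 was not called with DESeq2, without control replicate 2 or without SOX2 siRNA replicate 1. Of 20 genes for silencing and DNA methylation, 5 rose and 3 fell, with DNMT3B, a de novo DNA methyltransferase, at 0.40, UHRF1 at 0.23 and CBX1 at 0.17. SMCHD1, a known repressor of these arrays, was at -0.05 and was not called. The shares called were 33.3%, 25% and 40% in these lists, against 28.2% of all tested genes. Medians of these lists were 0.08, 0.00 and 0.01, against -0.00084 for all tested genes, and the calls were by edgeR at the same threshold.

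The non-clustered protocadherins, which have no shared exons, moved in both directions; PCDH1 and PCDH12 are near the arrays. Of 9 tested, 4 rose and 4 fell by edgeR (88.9% called, against 28.2% of all tested genes). PCDH18 fell by 1.31 on the log2 scale, from 153 to 62.1 CPM, PCDH8 fell by 1.79, from 13.2 to 3.83 CPM, and PCDH1 rose by 0.73. Of 17 protein partners and downstream genes, 3 rose and 1 fell (23.5% called). Among them were the WAVE complex subunit NCKAP1 at 0.31, its partner CYFIP2 at -0.34 and the kinase FYN at 0.27. Of 7 genes for proteolytic processing, 2 rose and 2 fell (57.1% called), among them APH1A at 0.28 and APH1B at -0.52. Of the pseudogenes of the locus, 1 was tested and was not called. Genes used as markers of other cell types also differed in this line. Of 14 neuronal markers, 7 were tested, 2 rose and 4 fell, and their sum was 257 to 267 CPM in control and 191 to 194 CPM in SOX2 siRNA libraries. Of 6 fibroblast markers, 4 were tested and 2 rose, and their sum was 300.2 to 350 CPM in control and 465 to 512 CPM in SOX2 siRNA libraries. Of 9 astrocyte and oligodendrocyte markers, 2 rose and 1 fell (sum 165 to 171 against 207 to 217 CPM), with OLIG1 and OLIG2 at 0. All 4 endothelial markers fell (88.3 to 92.0 against 61.3 to 63.4 CPM). Of 7 neural progenitor markers, 2 fell (788 to 804 against 522 to 531 CPM), with SOX1 at 0. Of tested markers, called were 85.7% neuronal, 50% fibroblast, 50% astrocyte and oligodendrocyte, 100% endothelial and 66.7% progenitor, against 28.2% of all tested genes. All libraries came from the PA1 line, so these markers do not show that such cells were present. Their relation to the protocadherin results was not tested.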

How the data were processed

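The authors deposited raw, whole-number counts of reads for each gene symbol. The submitters' processing notes name bcl2fastq 2.20.0, STAR 2.7.3a, Salmon 0.14.1, DESeq2 1.28.1 and the build GRCh38.p13. The role of each tool, the annotation and the use of strand are not given in the sources used here. Trizol-extracted RNA went into KAPA mRNA HyperPrep libraries, per the labels' protocols. The labels do not say that replicates came from separate cultures, so p-values measure the spread between these libraries, which may be technical.

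Genes were kept by edgeR's filterByExpr (minimum count 10), scaled by TMM and tested over all genes with edgeR 4.0.16 (R 4.3.3; glmQLFit with robust=TRUE, glmQLFTest, Benjamini-Hochberg, threshold 0.05). The procedure was tested on simulated data. DESeq2 1.42.0 and limma 3.58.1 (voom) were alternatives, as were other scalings and filters, the replicate block and leaving out each library. Figures used matplotlib 3.10.9. The floor of 3 counts is a fixed cut for detection and not an estimate of error. Reads copied by PCR are not independent molecules.

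Members and lists were chosen with earlier results of these data known. Named were all called members, the most abundant member of each array, the C-type members, up to 3 called genes per list and SOX2. A listed gene that meets this rule is not reported here. PCDHA1, PCDHA4, PCDHB5, PCDHB11, PCDHGA6, PCDHGA10, PCDHGA11, TAF7, CTCF, RAD21 and SMCHD1 were chosen after their values were seen. Protein sequences were not used here.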

Additional observations from a re-analysis of the deposited data

How the results depend on the processing

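The count of called members was 7 to 9 over 14 alternatives, against 8, and 7 of the 8 (all but PCDHB14) stayed past the threshold in every one. Deviations of same-numbered libraries correlated at 0.06, -0.06 and -0.05 over all tested genes, and those of other pairs at -0.089 to 0.141. This gave no sign that replicate numbers pair the libraries. A weak pairing could be missed, since genes with few counts had equal weight. With the replicate number as a block, 8 members were called, the same 8. A pair of uncalled genes changed sign when 1 library was left out: PCDHAC2 ranged from -0.0616 (without SOX2 siRNA replicate 2) to 0.311 in log2 fold change and PCDHB2 from -0.0713 to 0.0282 (without control replicate 3). Summed levels leaned on their most abundant member. Without PCDHAC2 the alpha log2 ratio of means was -0.78 (-0.24 with it), without PCDHB2 the beta ratio was 0.24 (0.14 with it) and without PCDHGC3 the gamma ratio was 0.38 (0.60 with it). Without the C-type members the change in share was -3.38 percentage points for beta and 3.65 for gamma. Depth limits the alpha genes, most of which had at most 3 counts per library.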
